A study of Mus musculus with 49 samples.

Results

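The nuclear-encoded respiratory chain genes were followed across 49 CT26 tumours. The set holds the protein-coding genes whose symbols follow the naming of subunits of complex I (Nduf with a, b, c, s or v and a number), complex II (Sdha, Sdhb, Sdhc and Sdhd), complex III (Uqcr), complex IV (Cox4 to Cox8) and complex V (Atp5), and which had at least 10 counts in at least 25 tumours. Of 39179 genes in the count table, 84 protein-coding genes matched the names and 78 met the count rule. These were 35 genes of complex I, 4 of complex II, 8 of complex III, 15 of complex IV and 16 of complex V. Ndufa4 and its paralogue Ndufa4l2 were placed with complex IV, where the Ndufa4 protein resides. The 6 genes below the count rule were Cox4i2, Cox6b2, Cox7b2, Cox8b, Cox8c and Atp5g2.

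The respiratory chain passes electrons from NADH (complex I) and succinate (complex II) through complexes III and IV to oxygen, and the proton gradient that this builds drives ATP synthesis by complex V. Most subunits are encoded in the nucleus and imported, while a core of complexes I, III, IV and V is encoded by mitochondrial DNA, so the complexes are products of both genomes. Tumour cells make ATP both this way and by glycolysis, whose genes are raised by hypoxia. Several complex IV subunits exist as alternative isoforms, among them the muscle forms Cox6a2, Cox7a1 and Cox8b.

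CT26 is a colon carcinoma line of the BALB/c mouse, here grown as tumours in that strain. Treatment began 7 days after the cells were injected and lasted 7 days. The 9 vehicle tumours received a DMSO, PEG400 and water mixture, 200 µL daily, and 7 tumours received celecoxib, an inhibitor of the prostaglandin-forming enzyme COX-2, at 30 mg/kg daily (3 mg/mL in 200 µL). Another 17 received an antibody against the T cell receptor PD-1, in 2 doses of 200 µg, and 16 received that antibody together with celecoxib, here called the combination. Tumours are marked R or NR for response, without a definition of either. All vehicle and celecoxib tumours were NR, anti-PD-1 held 4 R and 13 NR tumours, and the combination held 12 R and 4 NR. The tissue label gives day 7 of treatment and the extraction protocol day 4, and which of the days applies could not be settled. Nothing in the labels states that each tumour came from a separate animal, so a p-value is set against the spread between samples, which may be partly technical. Tumours are numbered below within their treatment, by name only.

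Libraries were 3′ tag libraries (QuantSeq), with 4251251 to 13671294 counts each (median 7670623). Such libraries give about 1 tag per transcript, so levels are given in CPM (a gene's count as a share of the library total, scaled by the TMM method) and are not divided by length. Bulk tumour RNA was measured, and fewer cells of a type cannot be told apart from less RNA per cell. The epithelial marker Krt18 reached 10 counts in all 49 tumours, whereas Epcam had a median of 0.183 CPM and the intestinal markers Cdx2 and Vil1 a median of 0. The leukocyte gene Ptprc had a median of 155 CPM. Of the 49 libraries, 12 stood apart by markers of skeletal muscle, fat or skin: vehicle 6, celecoxib 1 and 3, anti-PD-1 3, 9, 14, 15 and 16, and combination 7, 13, 14 and 15. All libraries were kept in the values below, and results without the 12 are given where they differ.

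Upstream sequences of a few members are shown first, to set motifs of factors known to drive respiratory chain genes beside the members' levels. RefSeq windows of 300 bases, which run from upstream of the annotated start to a little past it (GRCm38.p6) were found for 62 of the 78 members, as 67 windows, and for protein-coding genes overall as 21263 windows. The core NRF1 motif CGCANGCG, searched on both strands, was in 40.3% of member windows and in 11.1% of all windows. The ETS-family core CCGGAAG, the kind of site that GABP uses, was in 23.9% and 11.6%, and the YY1 motif AAGATGGCG in 10.4% and 1.83%. The SP-family box GGGCGG was in 35.8% and 46.2%, the NF-Y box CCAAT in 41.8% and 38.2%, the HIF core ACGTG in 22.4% and 20.9%, and TATAAA in 8.96% and 12.6%. NRF1 motifs were in 12 of 33 complex I windows, 2 of 3 for complex II, 3 of 5 for complex III, 1 of 11 for complex IV and 9 of 15 for complex V. No test of these shares was run. These motifs can overlap one another, and a match is a description of letters, not of binding.

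The stretches below run 5′ to 3′ on the gene's strand and end at the base before the annotated gene start. They are Ndufb6 (complex I, chr4:40279422-40279671, minus strand), Sdha (complex II, chr13:74350281-74350490, minus), Uqcr11 (complex III, chr10:80406831-80407071, minus), Cox6a1 (complex IV, chr5:115348982-115349208, minus), Atp5h (complex V, chr11:115419963-115420169, minus) and the muscle isoform gene Cox7a1 (chr7:30183921-30184143, plus). Capitals mark NRF1 motifs in Sdha, Cox6a1 and Atp5h, and ETS cores in Ndufb6 and Uqcr11. The genes are examples and do not stand for their complexes. Cox6a1 had the 1 of 11 complex IV windows with an NRF1 motif, and ETS cores were in 4 of 33 complex I windows.
Ndufb6: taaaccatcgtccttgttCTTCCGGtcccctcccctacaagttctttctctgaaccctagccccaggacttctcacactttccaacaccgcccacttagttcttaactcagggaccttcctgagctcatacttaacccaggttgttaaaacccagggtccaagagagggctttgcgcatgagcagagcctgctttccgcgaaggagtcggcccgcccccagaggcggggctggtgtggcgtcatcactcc
Sdha: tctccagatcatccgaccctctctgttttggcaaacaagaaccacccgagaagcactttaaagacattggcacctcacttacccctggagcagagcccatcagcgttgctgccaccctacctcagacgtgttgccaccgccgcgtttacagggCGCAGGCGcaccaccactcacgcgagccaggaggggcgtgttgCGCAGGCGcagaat
Uqcr11: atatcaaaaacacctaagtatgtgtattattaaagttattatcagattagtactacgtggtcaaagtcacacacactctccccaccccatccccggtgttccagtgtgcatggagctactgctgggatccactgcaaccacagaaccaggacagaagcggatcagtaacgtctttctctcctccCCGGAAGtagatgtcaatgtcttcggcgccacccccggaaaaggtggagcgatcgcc
Cox6a1: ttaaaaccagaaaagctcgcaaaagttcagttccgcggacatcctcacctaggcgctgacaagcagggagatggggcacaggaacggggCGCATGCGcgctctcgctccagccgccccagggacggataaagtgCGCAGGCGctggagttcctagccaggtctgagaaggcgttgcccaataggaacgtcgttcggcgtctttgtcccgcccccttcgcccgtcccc
Atp5h: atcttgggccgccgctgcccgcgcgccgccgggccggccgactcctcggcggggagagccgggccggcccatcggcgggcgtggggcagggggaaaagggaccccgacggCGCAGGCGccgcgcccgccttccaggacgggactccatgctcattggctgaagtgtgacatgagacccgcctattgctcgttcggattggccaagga
Cox7a1: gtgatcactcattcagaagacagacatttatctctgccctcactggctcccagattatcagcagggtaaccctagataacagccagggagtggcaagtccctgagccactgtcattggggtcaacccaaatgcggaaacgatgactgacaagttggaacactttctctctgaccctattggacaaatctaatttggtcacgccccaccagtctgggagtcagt
Sdha and Cox6a1 each carried 2 NRF1 motifs in the stretch shown. Cox7a1 carried none of the NRF1, ETS and YY1 motifs there, and its ACGTG match lay downstream of the annotated start.

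The members were expressed at widely different levels, and in complexes I, II, IV and V the lowest genes stood far below the rest. Over all tumours, complex V held the highest member, Atp5g3, a gene for the c subunit of the rotating ring, with a mean of 917 CPM and a range of 507 to 1532 CPM. The catalytic beta subunit Atp5b had a mean of 665 CPM (350 to 1020 CPM). In complex IV the highest means were those of Cox6c (584 CPM), Cox7a2 (519 CPM), Cox4i1 (507 CPM) and Cox6a1 (501 CPM). Ndufa2 led complex I with 527 CPM, Uqcrh, the hinge protein of complex III, led that complex with 426 CPM, and Sdhb, the iron-sulfur subunit of complex II, had 199 CPM. The lowest members were Ndufs5 in complex I (2.79 CPM), the membrane anchor Sdhd in complex II (8.64 CPM), Uqcrfs1, the Rieske iron-sulfur protein, in complex III (73.8 CPM), Cox6a2 in complex IV (7.28 CPM) and Atp5l in complex V (3.54 CPM). Together the members took 0.929% to 1.98% of a library's counts (median 1.59%).

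**Figure D1:**
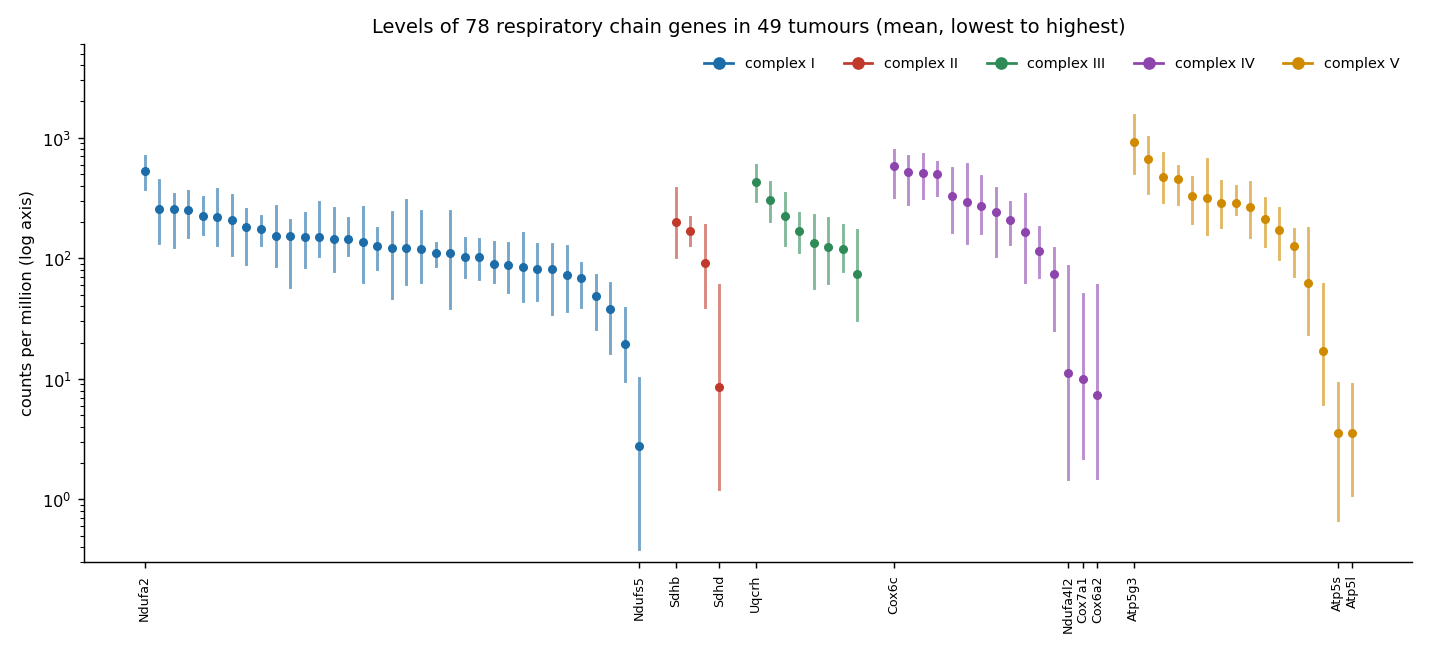
Mean level of each of the 78 members over 49 tumours (points) with the lowest and highest tumour (bars), in CPM on a log axis, ordered by mean within complexes I to V, with names for the highest member of each complex and for those with means below 12 CPM. Most members lie near or above 100 CPM, while Ndufs5, Sdhd, Ndufa4l2, Cox7a1, Cox6a2, Atp5s and Atp5l have means below 12 CPM and long bars.

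Part of these levels may rest on how reads shared with near-identical copies or neighbouring genes were assigned, and no source used here states that. For 33 of the 78 members, some 50-base window within the last 300 bases of the transcript also occurred in another gene, and for 11 members more than 50% of the windows did. Windows were searched on both strands, and each share is that of the gene's annotated transcript with the highest share. Uqcrc2, a core protein of complex III, shared 100% of its windows with the neighbouring gene Pdzd9. Cox7c shared 99.2% with 3 gene copies, Ndufb6 82.9% with Smim27, Atp5h 80.1% with 3 copies and Atp5l 70.1% with 11 copies. Ndufs5 (60.2%), Atp5o (59.0%), Ndufa12 (55.4%) and Ndufs3 (53%) were in the same class. Atp5g2, the third c-subunit gene and below the count rule, shared 100%. Counts of these genes are therefore uncertain, by an amount that was not measured, and 45 members shared no window.

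Variation between tumours was of the usual size for genes of this abundance. The SD of log2 CPM over the 49 tumours had a median of 0.36 for the members and 0.43 for the 13726 genes tested. Among genes with a mean of at least 100 CPM the medians were 0.31 for 56 members and 0.32 for 2031 genes. Within complex II, Sdha, the flavoprotein subunit, ranged from 128 to 221 CPM. Its partner Sdhd ranged from 1.22 to 59.9 CPM, with the highest value in combination 13. That tumour also had the lowest Ndufa12, an accessory subunit of complex I, at 57.5 CPM, and the highest Ndufs5, at 10.2 CPM. Sdha, Sdhd, Ndufa12 and Ndufs5 were described together after their values were seen.

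Most members went up and down together from tumour to tumour. The mean log2 CPM of complex I correlated with that of complex III at r = 0.95 (rho = 0.95) and with that of complex V at r = 0.94 (rho = 0.91). Complexes III and V correlated at r = 0.93 (rho = 0.94). Complex IV followed less closely, with r between 0.69 and 0.74 against complexes I, III and V, but without Cox6a2, Cox7a1 and Ndufa4l2 its r was 0.92 against complex I and 0.95 against complex V. Complex II stood further off, at r between 0.45 and 0.60. Its mean is over 4 genes, among them Sdhd, which was low (mean 8.64 CPM) and varied most in the complex. It was not recomputed without Sdhd. Against the mean of the other members, r was 0.77 for Sdhc, 0.60 for Sdha, 0.43 for Sdhb and 0.17 for Sdhd. These are descriptions over 49 tumours whose values share a library and a normalization, without a background from other gene sets.

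Single members were also compared with the mean of the other 77, again as a description over 49 tumours. The r exceeded 0.5 for 54 of 78 members and had a median of 0.70. The same was not computed over all genes or for other gene sets, so the count is not read as a trait of the members alone. It was highest for Atp5h, the d subunit of the complex V stalk, at 0.91, and for Cox7b at 0.89. At the other end was Ndufa12 with r = -0.53, followed by Ndufa4l2 (-0.04), Ndufa10 (0.05), Ndufb4 (0.09), Cox7a2l (0.11) and Sdhd (0.17). These outliers were named after their values were seen.

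Across treatments, the mean of each complex was lowest with the combination, and the groups overlapped widely. For complex I the mean log2 CPM was 6.81 ± 0.20 in vehicle tumours (SD, n = 9), 6.72 ± 0.24 after celecoxib (n = 7), 6.81 ± 0.21 after anti-PD-1 (n = 17) and 6.64 ± 0.22 after the combination (n = 16). Complex V had 7.12 ± 0.29, 7.05 ± 0.35, 7.15 ± 0.27 and 6.96 ± 0.27 in the same order. Complex III had 7.42 ± 0.28, 7.35 ± 0.32, 7.46 ± 0.25 and 7.29 ± 0.24, and complex IV 7.05 ± 0.27, 6.93 ± 0.33, 7.00 ± 0.26 and 6.86 ± 0.29. Complex II had 6.09 ± 0.29, 6.04 ± 0.45, 6.0 ± 0.43 and 5.95 ± 0.35. In every complex the differences between treatment means were smaller than the SD within a treatment. The members' share of all counts had a median of 1.64% in vehicle tumours, 1.72% after celecoxib, 1.70% after anti-PD-1 and 1.37% after the combination.

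**Figure D2:**
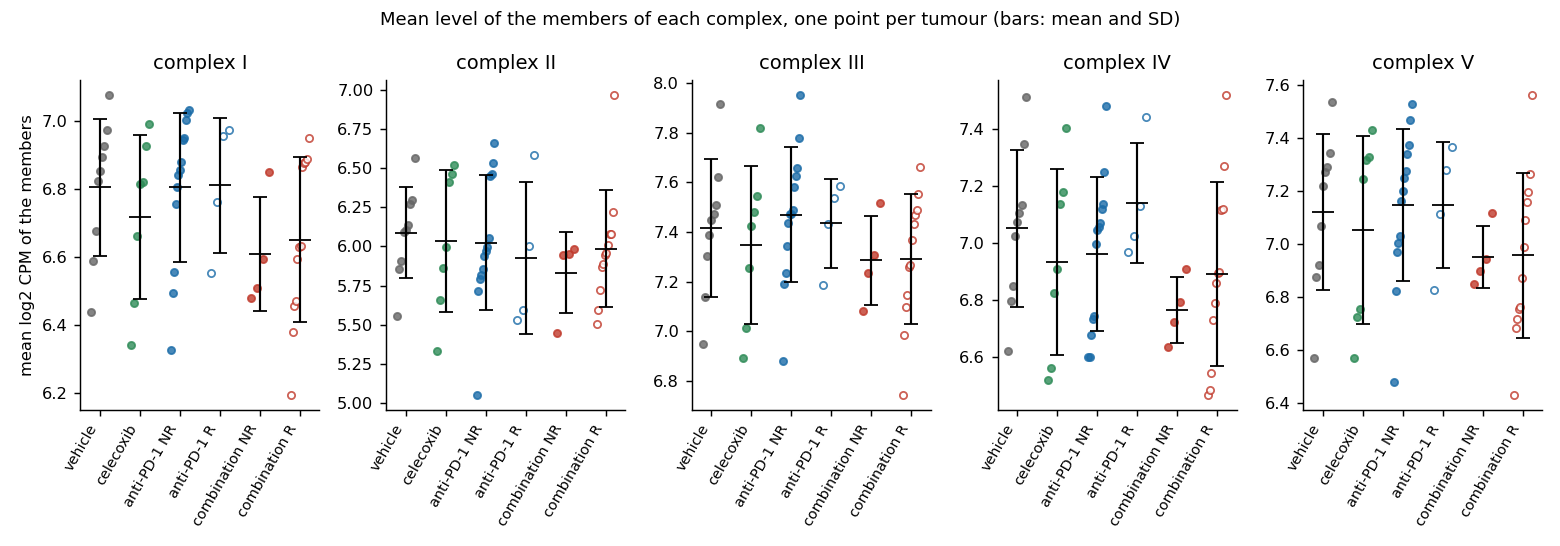
Mean log2 CPM of the members of each complex in each tumour (points), by treatment and response label, with the group mean and SD (bars). Open points are R tumours. The 4 treatments overlap in all 5 panels. The complex I means were 6.65 ± 0.24 in R and 6.61 ± 0.17 in NR tumours of the combination and 6.81 ± 0.20 in vehicle tumours.

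The comparison of the combination with anti-PD-1 sets the antibody with celecoxib against the antibody alone. A daily volume of 200 µL is listed for the combination and none for anti-PD-1, so celecoxib and daily dosing cannot be told apart. The groups also differ in response labels, with 12 R and 4 NR tumours against 4 R and 13 NR. Here 69 of 78 members had a lower fitted level with the combination, with a median log2 fold change of -0.17 against -0.00 for all genes tested, but no single member passed the test. By edgeR's quasi-likelihood test with Benjamini-Hochberg adjustment over 13726 genes, 0 members were called, where 0.503% of all genes were. DESeq2 and limma-voom called 0 members as well. At an unadjusted p under 0.05, 15 members (19.2%) were lower and 0 higher, where 7.23% of all genes were lower and 9.96% higher. The count of negative values was 31 of 35 in complex I (median -0.19), 2 of 4 in complex II (median -0.00), 8 of 8 in complex III (-0.17), 14 of 15 in complex IV (-0.14) and 14 of 16 in complex V (-0.21). Of all genes tested, 50.4% were negative. Since the members moved together across tumours, their counts are not independent of one another.

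The member with the smallest p was Atp5b (GRCm38 chr10:128083273-128090391, plus strand), the catalytic beta subunit of ATP synthase. It had 350 CPM at the lowest, 521 at the median and 862 at the highest with the combination, and 430, 753 and 1020 CPM with anti-PD-1. In 13 of 16 combination tumours it lay below the anti-PD-1 median, and the groups overlapped. The log2 fold change was -0.34 ± 0.12 (SE, adjusted p = 0.129). Other members of complex V with values of this size were Atp5o, the stalk subunit that confers oligomycin sensitivity (301 ± 61.1 against 356 ± 55.7 CPM, log2 fold change -0.25, adjusted p = 0.145), and Atp5mpl (236 ± 60.5 against 298 ± 83.3 CPM, -0.33, adjusted p = 0.198). Atp5f1, the b subunit of the stalk, had the lowest fold change of complex V, at -0.35 ± 0.16 (adjusted p = 0.246). Atp5l, a membrane subunit, had the highest, at 0.07 ± 0.19.

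In complex I the lowest value was that of Ndufb6, an accessory subunit of the membrane arm. Its level was 36.7, 60.6 and 126 CPM (lowest, median and highest) with the combination and 46.2, 72.8 and 128 CPM with anti-PD-1. The log2 fold change was -0.35 ± 0.14 (adjusted p = 0.183), with 15 of 16 combination tumours below the anti-PD-1 median. The membrane-arm subunits Ndufb10, Ndufb9 and Ndufb8 had -0.22, -0.25 and -0.20. Ndufs5 had the highest value of the complex, 0.20 ± 0.30, on a mean of only 2.85 CPM. Within complex III, Uqcr11, its smallest subunit, had 62.7, 106 and 159 CPM with the combination and 98.1, 135 and 217 CPM with anti-PD-1. That gave -0.31 ± 0.12 (adjusted p = 0.164), and 11 of 16 combination tumours were below the anti-PD-1 median. Uqcrh stood at the other end of complex III, at -0.04 ± 0.07.

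Complex II showed the smallest values. Sdhc, a membrane anchor, had -0.13 ± 0.15 (adjusted p = 0.671) and Sdhb 0.02 ± 0.13 (adjusted p = 0.961). In complex IV, Ndufa4 had 28.7, 57.8 and 119 CPM with the combination and 27.6, 81.3 and 117 CPM with anti-PD-1, and its log2 fold change was -0.43 ± 0.19 (adjusted p = 0.241). Cox7a1 was lowest there at -0.53 ± 0.40 and Cox6a2 highest at 0.47 ± 0.35, neither past the test. The ubiquitous subunits Cox6a1 (-0.10 ± 0.07) and Cox7a2 (-0.04 ± 0.09) were close to 0.

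Against vehicle, 68 of 78 members had a lower fitted level with the combination, with a median of -0.16 against 0.01 for all genes, and 0 members were called by edgeR, where 0.0729% of all genes were. DESeq2 and limma-voom again called 0. At an unadjusted p under 0.05, 6 members (7.69%) were lower and 0 higher, where 6% of all genes were lower and 9.37% higher, so the lower share was near the background. All 16 complex V members were below 0 (median -0.16), as were 30 of 35 in complex I (-0.20), 3 of 4 in complex II (-0.10), 7 of 8 in complex III (-0.11) and 12 of 15 in complex IV (-0.12). This comparison and the preceding one share the combination tumours and are not independent.

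The 6 members were Cox4i1, Ndufs6, Atp5b, Ndufs1, Ndufa4 and Ndufb9. Cox4i1 (chr8:120668222-120674207, plus strand), the main isoform of the largest nuclear-encoded complex IV subunit, had 317, 461 and 609 CPM with the combination and 468, 532 and 727 CPM with vehicle. Its log2 fold change was -0.33 ± 0.11 (adjusted p = 0.168), with 12 of 16 combination tumours below the vehicle median. Its alternative isoform Cox4i2 stayed below the count rule, with at most 1.41 CPM in any tumour. Ndufs1, the large iron-sulfur subunit of complex I, had 63.4, 81.9 and 116 CPM with the combination and 85.6, 94.1 and 121 CPM with vehicle (-0.26 ± 0.11, adjusted p = 0.267). Atp5b had -0.36 ± 0.14 (adjusted p = 0.211) and Ndufa4 -0.49 ± 0.23 (adjusted p = 0.297). The extremes of the complexes were Ndufa1 (-0.38 ± 0.23) and Ndufa12 (0.17 ± 0.13) in complex I, Sdhc (-0.19) and Sdhb (0.11) in complex II, Uqcr11 (-0.24) and Uqcrc1 (0.00) in complex III, Ndufa4l2 (-1.14 ± 0.60) and Cox6a2 (0.65 ± 0.43) in complex IV, and Atp5b and Atp5d (-0.04) in complex V.

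Without the 12 libraries that stood apart by other-tissue markers, a choice made after the data were seen, edgeR called 5 members lower in the combination than in vehicle. In that fit of 13579 genes, 5.8% of all genes were called in either direction and 2.58% were called lower, and the 5 members are 6.41% of 78. They were Atp5b (-0.47 ± 0.13, adjusted p = 0.0256), Cox4i1 (-0.39 ± 0.11, adjusted p = 0.0285), Ndufa1 (-0.62 ± 0.17, adjusted p = 0.0313), Ndufa4 (-0.71 ± 0.21, adjusted p = 0.0381) and Ndufs3 (-0.58 ± 0.17, adjusted p = 0.0408). Ndufs3 is the core subunit of complex I with 53% of shared windows. The single vehicle tumour among the 12, vehicle 6, had the lowest vehicle values of Ndufa4 (25.3 CPM) and Ndufa1 (47.6 CPM). The same removal called 0 members in the other 8 comparisons.

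**Figure D3:**
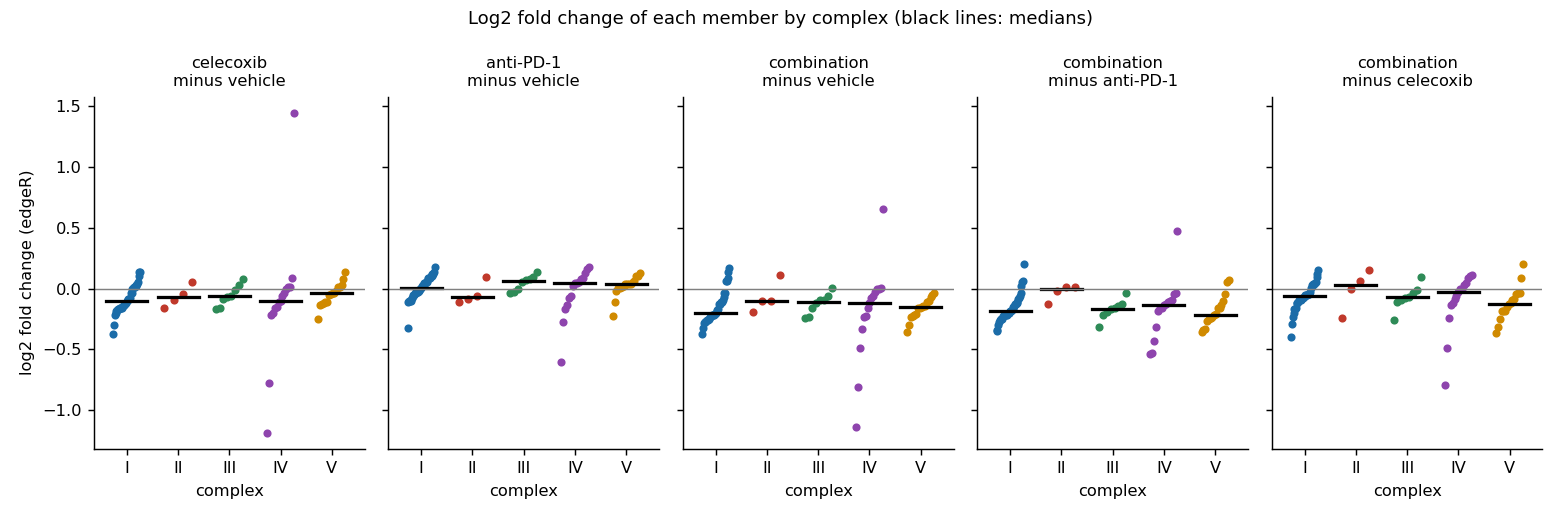
Log2 fold change of each of the 78 members from edgeR (points), by complex, in the 5 comparisons of treatments, with the median of each complex (black lines). The medians over all members were -0.17 for the combination against anti-PD-1, -0.16 against vehicle and 0.03 for anti-PD-1 against vehicle. The points far from 0 in complex IV are Cox6a2, Cox7a1 and Ndufa4l2.

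Markers of other cell types were read from the same fits. For the combination against anti-PD-1, all 10 T cell markers were higher in the fitted values (median log2 fold change 1.30, 0 past the test, 8 at an unadjusted p under 0.05). Their summed level was 8.41, 113 and 514 CPM (lowest, median, highest) with the combination and 4.33, 39.1 and 252 CPM with anti-PD-1. Cytotoxic lymphocyte markers were higher for 10 of 10 (median 1.05, 0 past the test), with summed levels of 43.9, 400 and 1249 CPM against 20.3, 165 and 1082 CPM. Pericyte markers were lower for 9 of 9 (median -0.59, 0 past the test), with summed levels of 43.8, 97.9 and 171 CPM against 70.6, 151 and 220 CPM. Muscle markers were higher for 19 of 20 (median 1.47, 6 at an unadjusted p under 0.05, 0 past the test), with summed levels of 68.4, 124 and 4117 CPM against 86.1, 130 and 1053 CPM. Macrophage markers were higher for 9 of 10 (median 0.48, 0 past the test), at 412, 2570 and 6235 CPM against 512, 1628 and 5929 CPM. Endothelial markers were lower for 9 of 10 (median -0.24), at 71.2, 228 and 319.9 CPM against 121, 271 and 369 CPM, and 1 passed the test, Robo4 (-0.91 ± 0.21, adjusted p = 0.0336). Of 7 tested adipocyte markers 6 were lower (median -0.48), at 99.7, 147 and 647 CPM against 77.3, 166 and 319 CPM, while Lpl was higher (1.12 ± 0.27, adjusted p = 0.0372). The 2 tested skin markers gave 1 value of each sign.

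Against vehicle, 0 markers of these lists passed the test. Muscle markers were higher for 19 of 20 (median 3.42, 18 at an unadjusted p under 0.05), T cell, cytotoxic and macrophage markers for 10 of 10 each (medians 1.03, 1.02 and 0.54), endothelial markers for 8 of 10 (0.20) and pericyte markers for 4 of 9 (-0.04). Of the 7 adipocyte markers 2 were higher (median -1.57). Summed levels in vehicle tumours were 70.2, 118 and 280 CPM for muscle, 19.1, 71.1 and 161 CPM for T cells and 45.5, 122 and 982 CPM for adipocytes. No muscle, T cell, cytotoxic, macrophage, endothelial or pericyte marker was at 0 in all tumours of a treatment. With the muscle list as a covariate 0 members were called in either comparison, as without it. In those fits 1.11% of all genes were called against anti-PD-1 and 0.437% against vehicle. Since 0 members were called either way, this does not show what part muscle had. The part of each list in the members' values was not tested.

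No member passed the test with a single agent. Between anti-PD-1 and vehicle, 47 of 78 members were positive with a median of 0.03 (all genes 0.01). None passed the test (0 called by edgeR, DESeq2 or limma-voom, against 0.0874% of all genes by edgeR), and 0 had an unadjusted p under 0.05, where 1.89% of all genes were higher and 1.6% lower. Celecoxib against vehicle gave 56 of 78 negative values and a median of -0.09 (all genes -0.00). Again 0 members were called by edgeR, DESeq2 or limma-voom, against 0% of all genes by edgeR. At an unadjusted p under 0.05 there was 1 higher member, Cox6a2, and 0 lower, where 1.43% of all genes were higher and 0.86% lower. These comparisons share the vehicle tumours, which received a daily volume, while none is listed for anti-PD-1.

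Between the combination and celecoxib, 58 of 78 members were negative, with a median of -0.07 (all genes 0.02). By edgeR, DESeq2 and limma-voom 0 were called, against 0.0364% of all genes by edgeR. Only Ndufb6 had an unadjusted p under 0.05 there (-0.40 ± 0.18, adjusted p = 0.918), where 2.31% of all genes were lower and 2.61% higher. Its level with celecoxib was 51.7, 84.5 and 119 CPM (lowest, median, highest). The effect of celecoxib with anti-PD-1 minus its effect without was tested as an interaction. The first of these effects also holds the daily dosing. In that test 0 members were called by the 3 tools, against 0% of all genes by edgeR, and Ndufb6 alone had an unadjusted p under 0.05 (-0.49 ± 0.24, adjusted p = 1.0), where 1.56% of all genes were lower and 1.45% higher.

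No member passed the test between response labels. Under anti-PD-1 the complex I mean was 6.81 ± 0.20 (SD, n = 4) in R and 6.81 ± 0.22 (n = 13) in NR tumours, and complex V had 7.15 ± 0.24 and 7.15 ± 0.29. Under the combination complex I had 6.65 ± 0.24 (n = 12) in R and 6.61 ± 0.17 (n = 4) in NR, and complex V 6.96 ± 0.31 and 6.95 ± 0.12. The other complexes under anti-PD-1 had 5.93 ± 0.48 and 6.02 ± 0.43 (II), 7.44 ± 0.18 and 7.47 ± 0.27 (III) and 7.14 ± 0.21 and 6.96 ± 0.27 (IV). Under the combination these were 5.99 ± 0.37 and 5.83 ± 0.26, 7.29 ± 0.26 and 7.29 ± 0.18, and 6.89 ± 0.32 and 6.77 ± 0.11. Complex IV includes Cox7a1 and Ndufa4l2, described below. The median log2 fold change of the members, R minus NR, was -0.03 under anti-PD-1 (all genes 0.00) and 0.05 under the combination (all genes 0.03). By edgeR, DESeq2 and limma-voom 0 members were called in either, against 0% of all genes by edgeR. The difference between both R minus NR contrasts also called 0 members and 0% of all genes, with 0 members at an unadjusted p under 0.05, where 1.36% of all genes were higher and 0.948% lower. DESeq2 and limma-voom also called 0 members in that test, where DESeq2 called 0.00802% of all genes.

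At an unadjusted p under 0.05, 2 members were higher in R under anti-PD-1, Ndufa4l2 and Cox7a1, and 0 were lower, where 3.82% of all genes were higher and 2.66% lower. Ndufa4l2 (chr10:127514967-127517154, plus strand), a hypoxia-induced paralogue of Ndufa4, had 33, 71.4, 3.52 and 4.66 CPM in the 4 R tumours. In the 13 NR tumours it had 1.47, 3.55 and 25 CPM (lowest, median, highest). So 2 of the 4 R tumours, anti-PD-1 12 and 14, were above every NR tumour and the other 2 lay among them. Of these R tumours, anti-PD-1 14 and 15 are among the 12 libraries with other-tissue markers, as are 3 of the 13 NR tumours. The muscle list mean was 3.58 log2 CPM in anti-PD-1 14 and -0.36 in anti-PD-1 12. The log2 fold change was 1.97 ± 0.71 (adjusted p = 0.701), and 0.94 without anti-PD-1 14. Cox7a1 (chr7:30184144-30186078, plus strand), the heart and skeletal muscle isoform of its subunit, had 26.1, 49.5, 6.63 and 4.11 CPM in the same R tumours and 2.45, 5.64 and 20.3 CPM in NR. Its log2 fold change was 1.42 ± 0.55 (adjusted p = 0.734), and 0.61 without anti-PD-1 14. The summed level of 23 hypoxia and glycolysis genes, none of them at 0 in all tumours of a group, was 3630 to 18467 CPM in the R tumours and 2666 to 7548 CPM in the NR tumours, and 21 of the 23 were higher in R at an unadjusted p under 0.05 (median log2 fold change 1.08, 0 past the test).

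Under the combination the 4 NR tumours had 4.43, 4.69, 5.65 and 3.42 CPM of Ndufa4l2 and 4.17, 2.27, 2.82 and 5.07 CPM of Cox7a1. The 12 R tumours ranged up to 49.6 CPM for Ndufa4l2 (median 4.86) and 38.1 CPM for Cox7a1 (median 5.97), both highest in combination 15. Libraries with other-tissue markers were 4 of these 12 R tumours, combination 15 among them, and 0 of the 4 NR tumours. At an unadjusted p under 0.05 there was 1 higher member in R, Ndufs3, and 0 lower, where 5.28% of all genes were higher and 3.83% lower. Ndufs3 had 9.52, 12.5, 14.9 and 15.5 CPM in the NR tumours and 9.99, 17.7 and 38.8 CPM in the R tumours (0.54 ± 0.26, adjusted p = 0.540).

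Cox7a1 and Ndufa4l2 followed that hypoxia and glycolysis list, to which neither belongs. Over 49 tumours Cox7a1 correlated with the list mean at r = 0.93 and rho = 0.92 (permutation p = 1e-05 for each, the smallest that 100000 resamples can give, Benjamini-Hochberg adjusted 0.000142 and 8.67e-05 over 156 relations). Without the 2 tumours farthest from the list's median, vehicle 8 and anti-PD-1 14, r was 0.90. It was 0.99 within the vehicle tumours, 0.83 within celecoxib, 0.96 within anti-PD-1 and 0.92 within the combination. Ndufa4l2 gave r = 0.91 and rho = 0.80 (permutation p = 1e-05 for each, adjusted 0.000142 and 8.67e-05), 0.87 without those 2 tumours, and 0.95, 0.87, 0.94 and 0.83 within the treatments in the same order. Both genes were highest in vehicle 8 (50.5 CPM of Cox7a1, 87.1 CPM of Ndufa4l2), anti-PD-1 14 and combination 15, the 3 tumours with the highest list means (8.50, 8.30 and 8.08 log2 CPM). With the list mean as a covariate, chosen after the data were seen, the R minus NR values under anti-PD-1 became -0.21 for Cox7a1 and -0.08 for Ndufa4l2. Since both genes follow the list so closely, such a fit could hardly leave their values unchanged, and it does not show a cause. What lay behind the R minus NR values was not tested.

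The other members gave mixed values. Among the 78 members, 42 correlated positively and 36 negatively with the hypoxia and glycolysis list, with a median r of 0.03. At an adjusted permutation p under 0.05 there were 5 positive members (Cox7a1, Ndufa4l2, Ndufv3, Ndufa6 and Cox7a2l) and 1 negative, Uqcrc1, a core protein of complex III. These correlations were not computed over all genes, so the counts have no background share beside them. Ndufv3, a small subunit of the NADH-oxidizing module, had r = 0.71 and rho = 0.62 (adjusted 0.000142 and 8.67e-05), and 0.60 without the 2 farthest tumours. For Uqcrc1 the values were r = -0.40 and rho = -0.43 (adjusted permutation p = 0.0225 and 0.00881), and -0.36 without them. Ndufa4, the paralogue of Ndufa4l2, had r = -0.14 (rho = -0.07, adjusted permutation p = 0.537 and 0.809).

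Cox6a2, the muscle isoform of the Cox6a subunit, was highest in the libraries richest in muscle transcripts. Its level was 60.2 CPM in celecoxib 1, 26.5 in combination 15, 15.7 in combination 14 and 14.3 in celecoxib 3, which are the 4 tumours with the highest mean of the 20 muscle markers (7.37, 6.39, 6.19 and 6.63 log2 CPM). At low muscle levels the order differed. Vehicle 1, highest of the vehicle tumours at 9.50 CPM, had a marker mean of -0.03, and vehicle 7, at 7.40 CPM, had 2.75. With celecoxib Cox6a2 had 2.47, 4.40 and 60.2 CPM (lowest, median, highest) and with vehicle 2.23, 3.81 and 9.50 CPM, and the log2 fold change of 1.44 ± 0.51 (adjusted p = 0.831) was 0.22 without celecoxib 1 and -0.34 without the 12 libraries. Those 12 were picked partly by the muscle markers, so the last value follows in part from that choice. All 20 muscle markers were higher with celecoxib in the fitted values (0 past the test), with a summed level of 74.1, 111 and 6987 CPM against 70.2, 118 and 280 CPM with vehicle. Cox8b, another muscle isoform and below the count rule, was at most 0.823 CPM with vehicle and reached 19.3 CPM in celecoxib 1 and 10.9 CPM in combination 15. Cox6a1, the ubiquitous form, had at least 335 CPM in every tumour and an SD of 0.20 log2 units over all of them.

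**Figure D4:**
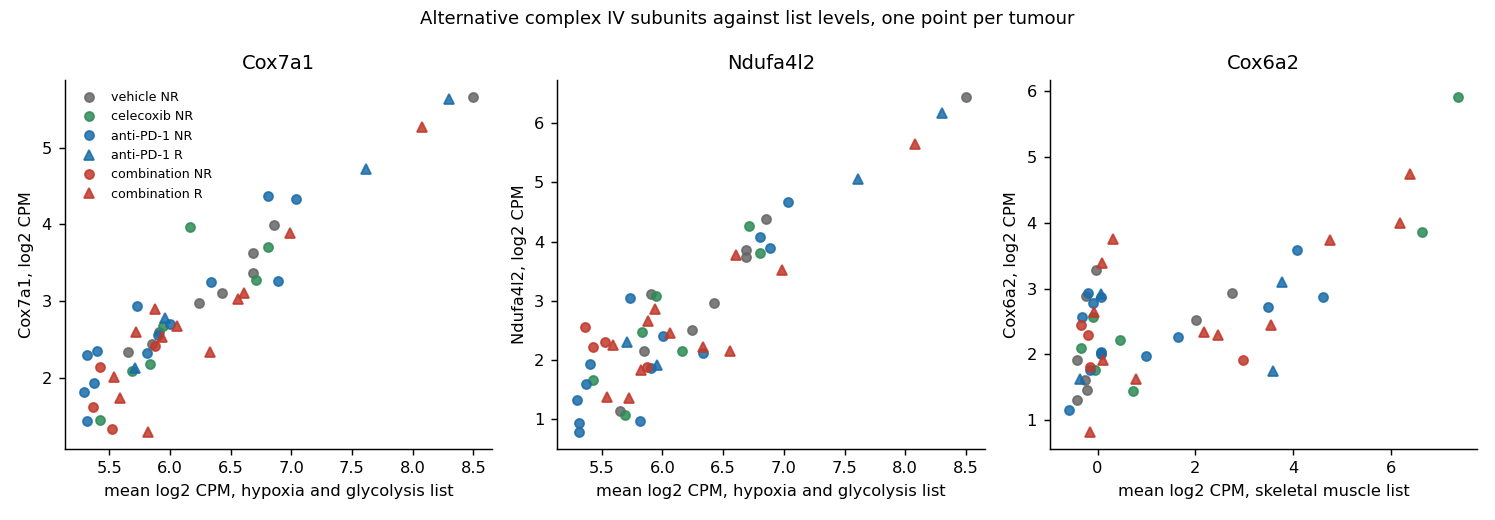
Log2 CPM of Cox7a1 and Ndufa4l2 against the mean log2 CPM of the hypoxia and glycolysis list, and of Cox6a2 against that of the skeletal muscle list, 1 point per tumour, coloured by treatment, triangles for R. The highest Cox7a1 and Ndufa4l2 values are in the 3 tumours with list means of 8.50, 8.30 and 8.08, and the highest Cox6a2 value is in celecoxib 1.

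Mitochondrial DNA encodes 13 further subunits, of which 7 passed the low-count filter. Of the other 6, mt-Co2, mt-Co3, mt-Atp8 and mt-Nd4l were listed at 0 in all tumours, and mt-Nd3 reached at most 3.01 CPM. For mt-Atp6 the median was 0 in every treatment, and its highest value was 0.139 CPM, in a vehicle tumour. Every cell uses these genes, and mt-Nd4 and mt-Cytb had medians of 5012 and 5241 CPM in vehicle tumours, so a listed 0 is not read as absence of the transcript. The complex I subunit mt-Nd5 was higher with the combination than with vehicle (log2 fold change 1.24 ± 0.21, adjusted p = 0.0022) and than with anti-PD-1 (0.71 ± 0.17, adjusted p = 0.0364). Its level was 325, 848 and 1251 CPM (lowest, median, highest) with the combination, 311, 434 and 994 CPM with anti-PD-1 and 235, 322 and 462 CPM with vehicle. The other 6 did not pass the test in either comparison. Against vehicle mt-Nd2 had 1.23 ± 0.31 (adjusted p = 0.0969), mt-Co1 0.74 ± 0.17 (adjusted p = 0.0754) and mt-Nd1 0.05 ± 0.14, and the median of the 7 was 0.74. Summed over the 13 genes, with those at 0 included, levels had a median of 23019 CPM with the combination, 23313 with anti-PD-1 and 17710 with vehicle. All counts from mitochondrial DNA took a median of 6.46% of the library with the combination, 4.80% with anti-PD-1 and 4.00% with vehicle.

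Tumour by tumour, 69 of 78 members correlated negatively with the mean of the 7 mitochondrially encoded genes (median r -0.32). That mean of log2 CPM gives each gene equal weight. It includes mt-Nd6, which was low, at a median of 1.71 CPM in vehicle tumours and 5.22 CPM with the combination. The mean was not recomputed without mt-Nd6. At an adjusted permutation p under 0.05, 33 were negative and 2 positive (Ndufa10 and Ndufa12). The same correlations were not computed over all genes. Without that share, the counts are not read as a trait of the members alone. Atp5b had r = -0.63 and rho = -0.69 (permutation p = 1e-05 for each, adjusted 0.000142 and 8.67e-05), and r = -0.72 without vehicle 6 and anti-PD-1 6, the tumours farthest from the list's median. The relation was not the same within each treatment. Members were negative for 70 of 78 within the 7 celecoxib tumours, 66 within the 17 anti-PD-1 tumours and 70 within the 16 combination tumours, but for only 12 within the 9 vehicle tumours, or 44 without vehicle 6. Atp5b itself had r = 0.43 within vehicle, -0.85 within celecoxib, -0.50 within anti-PD-1 and -0.77 within the combination. Both quantities are shares of the same library.

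**Figure D5:**
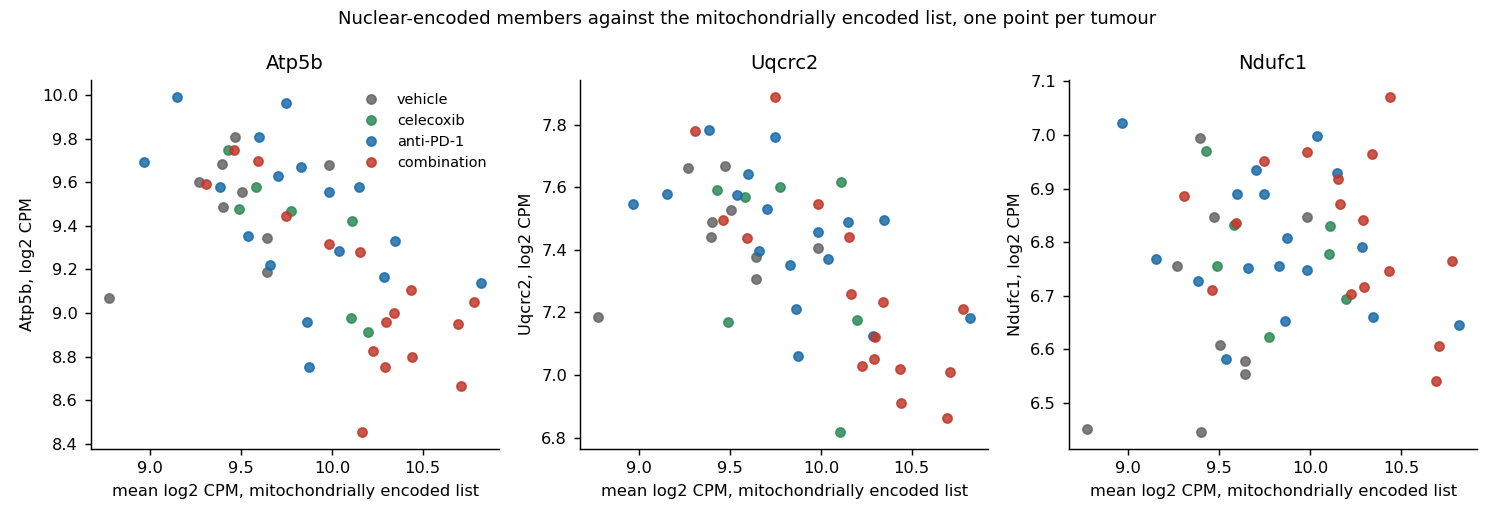
Log2 CPM of Atp5b, Uqcrc2 and Ndufc1 against the mean log2 CPM of the 7 tested mitochondrially encoded genes, 1 point per tumour, coloured by treatment. Atp5b (r = -0.63) and Uqcrc2 (r = -0.60) slope down across 49 tumours, while Ndufc1 does not (r = 0.02).

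Genes that build and supply the chain were read from the same fits. For the combination against anti-PD-1, 0 of 18 complex I assembly factors were called (median -0.08), 0 of 20 for complex IV (-0.10), and 0 of 4, 0 of 6 and 0 of 4 for complexes II, III and V. At an unadjusted p under 0.05 the assembly factors gave 1 higher and 1 lower for complex I, 1 higher and 3 lower for complex IV and 0 for the rest. Electron carriers and subunits outside the naming pattern, such as cytochrome c, had 0 of 19 called (median -0.15, 4 lower at an unadjusted p under 0.05). In the tricarboxylic acid cycle, which feeds electrons into the chain, 17 of 17 genes were negative with 0 called (median -0.13, 3 lower at an unadjusted p under 0.05). Among 18 regulators of mitochondrial biogenesis 1 was lower, Polg, the catalytic subunit of the mitochondrial DNA polymerase, with a log2 fold change of -0.39 ± 0.08 (adjusted p = 0.0152). Polg had 20.5, 29.9 and 41.1 CPM with the combination and 33.2, 38.4 and 53.9 CPM with anti-PD-1.

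Ribosomal protein genes give a comparison with other coordinately expressed sets. Of 75 tested mitochondrial ribosomal proteins, 1 was lower with the combination than with anti-PD-1, Mrpl42 (-0.33 ± 0.08, adjusted p = 0.0481), and 0 were higher, with a median of -0.14 over the set. Of 89 tested cytosolic ribosomal proteins 0 were called in that comparison (18 lower and 1 higher at an unadjusted p under 0.05), and their median was -0.22. The respiratory chain median of -0.17 lay between those values, and no test of the difference between the sets was run.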

How the data were processed

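Per the labels' protocols, tumour RNA went into QuantSeq FWD libraries, which read 3′ ends. The deposited table holds raw read counts per Ensembl gene. The authors also deposited log2 CPM values, which were not used here. Per the submitters' processing notes the builds were mm10 and GRCm38, and the tools were STAR, featureCounts, bcl2fastq and limma. Not given in the sources used here were their versions, the gene annotation, strandedness and the handling of multiply aligned reads. Symbols and coordinates came from GENCODE on GRCm38, with a symbol for 37693 of 39179 genes. Promoter windows and their sequences are RefSeq's, on GRCm38.p6.

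Tests used edgeR 4.0.16 in R 4.3.3 on the counts with TMM, filterByExpr (minimum count 10) and robust quasi-likelihood fits. A model over all libraries held the 4 treatments (13726 genes), and another held 6 groups by treatment and response (14247 genes). All 78 members passed the filter in both. P-values were adjusted over all genes tested, with 0.05 as the limit, and fold changes are given ± SE. Log2 CPM used a prior count of 2. Group values are means ± SD. Correlations used 100000 permutations in Python 3.11.15 with numpy 2.4.6, two-sided. Total counts of 4251251 to 13671294 per library set the precision, and low members (under about 10 CPM) are the least precise. On simulated counts for the combination against anti-PD-1 (13726 genes, 50 changed per size), edgeR recovered 52% of genes changed by 0.5 log2 units, 90% of those changed by 1 and 100% of those changed by 2 or 3, with 5 unchanged genes called. In that simulation genes varied independently, unlike in the tumours.

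The members and gene lists were chosen with earlier results of these data known. Members named are those called, the extremes of each complex in 2 comparisons (combination against vehicle and against anti-PD-1), the highest and lowest of each complex and the isoform pairs, and others were named after their values were seen. Alternatives were DESeq2 1.42.0, limma-voom (limma 3.58.1), RLE scaling, no low-count filter, a muscle list covariate, fits on just the groups compared, a count rule over all 49 tumours and 57 refits without single libraries. Removal of 12 libraries (muscle list mean over 3, or adipocyte or skin list mean over 4, in log2 CPM) and the hypoxia list as a covariate were chosen after the data were seen. The values of 1 member are not reported here, but it is included in the counts and medians.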

Additional observations from a re-analysis of the deposited data

Results flagged for a closer look

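For the named members and the complex means, each group of 4 to 10 tumours was searched for a tumour whose gap to its nearest neighbour was large against the group's range (Dixon's 95% critical value). Of 192 pairs of group and measure, 13 had such a tumour, while chance gives about 1 in 20. Levels below are in log2 CPM.

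Vehicle held 7 of them. Vehicle 6 was lowest for Atp5o (7.98, next 8.28), Ndufa1 (5.58, next 6.54) and Ndufa4 (4.68, next 5.99). Vehicle 5 was lowest for Ndufa12 (6.45, next 6.98) and Ndufb8 (7.32, next 7.82) and highest for Atp5g1 (5.95, next 4.43), a c-subunit gene that shares 54.2% of its 3′ windows with 2 other genes. Vehicle 8 was highest for Cox7a1 (5.66, next 4.00).

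With celecoxib, celecoxib 1, the tumour with the highest muscle list mean, was highest for Atp5d, the delta subunit of complex V (8.02, next 7.32). Among the 4 R tumours under anti-PD-1, anti-PD-1 12 was lowest for Atp5o (8.03, next 8.40) and anti-PD-1 17 highest for Uqcrc1 (7.34, next 6.74). Among the 4 NR tumours under the combination, combination 5 was lowest for the complex II mean (5.44, next 5.95) and for Atp5f1 (7.32, next 8.03), and combination 12 was highest for Atp5mpl (8.22, next 7.74).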

How the results depend on the processing

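No paired analysis was possible because the tumour numbers only name the tumours within a treatment and do not tie tumours across treatments. The count of 0 called members in each of the 9 comparisons was the same under every alternative run except 1: without the 12 libraries with other-tissue markers, 5 members were called in the combination against vehicle, all lower, among them Atp5b (-0.47), Cox4i1 (-0.39) and Ndufa4 (-0.71). The cause was not tested, and that fit holds fewer tumours. For the combination against anti-PD-1 the share of all genes called ranged over these alternatives from 0.081% (without the 12 libraries) to 3.28% (without combination 15), with 0.0949% without combination 16, 1.11% with the muscle covariate and 1.13% by DESeq2. Refits without 1 library called 0 to 0 members in the 9 comparisons. In the response comparisons only the 4 R tumours under anti-PD-1 and the 4 NR tumours under the combination were left out in turn. The calls of mt-Nd5, Polg, Mrpl42, Robo4 and Lpl were not refitted under the alternatives. The members' median log2 fold change ranged over the refits without 1 library from -0.21 to -0.14 for the combination against anti-PD-1, from -0.22 to -0.10 against vehicle, from -0.12 to -0.01 against celecoxib, from -0.14 to -0.03 for celecoxib and from -0.03 to 0.06 for anti-PD-1 against vehicle, and from -0.16 to -0.01 for the interaction. For R minus NR, over those 8 tumours, it ranged from -0.08 to 0.06 under anti-PD-1, from 0.01 to 0.13 under the combination and from -0.02 to 0.14 for their difference. Among single genes, Cox6a2 in celecoxib against vehicle became -0.34 without the 12 libraries, which were picked partly by muscle markers. With the hypoxia list as a covariate, R minus NR under anti-PD-1 became -0.21 for Cox7a1 and -0.077 for Ndufa4l2. Both genes follow that list closely, so this fit does not show a cause. Without celecoxib 1 the Cox6a2 value was 0.22, and without anti-PD-1 14 Cox7a1 was 0.61 and Ndufa4l2 0.94. Depth limits Ndufs5, Atp5l and Atp5s most, at means of 2.79, 3.54 and 3.55 CPM.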
